A study of Rattus norvegicus with 8 samples.

Results

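The miR-23/27/24 clusters are 2 groups of neighboring miRNA genes, and their main mature products, miR-23a-3p, miR-23b-3p, miR-27a-3p, miR-27b-3p and miR-24-3p, were followed in the medial vestibular nucleus (MVN) after unilateral vestibular deafferentation (UVD). The 5 miRNAs were taken by name from the 758 rat miRNAs on the array. All 5 were detected on all 8 arrays. No difference of any of the 5 passed the test between the UVD and sham operation (SO) groups or between the timepoints, and on the normalized scale the highest array of each miRNA exceeded its lowest by a factor of 1.09 to 1.23.

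The MVN is the brainstem nucleus in which afferent signals from the vestibular organ arrive, and the study compared groups to find miRNAs that change while balance recovers. All animals were male Sprague–Dawley rats of 7 weeks operated on at the left side. In the UVD group the labyrinth of the inner ear was opened with a drill and destroyed with ethanol, and in the SO group the operation stopped before the labyrinth was opened and no ethanol was given. The 4 groups were UVD at 4 d, UVD at 4 h, SO at 4 d and SO at 4 h after surgery, with 2 arrays each. Each array held RNA of the left MVNs of 3 rats, so replicate arrays differ as pools of animals do, and the spread among single animals was not measured. No group without surgery was analysed here, and the side opposite the operation was not analysed here.

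A miRNA is a short RNA that represses messenger RNAs, which it finds mainly through its seed, the bases 2 to 8 from its 5′ end. Each cluster is transcribed as 1 precursor RNA that yields a miR-23, a miR-27 and a miR-24. The cluster with miR-23b is known for high levels in astrocytes, and the cluster with miR-23a for its expression in endothelial and blood-forming cells and for responses to injury and growth signals. miR-23 and miR-27 are known in mouse brain as glia-enriched miRNAs, miR-27 as a repressor of PPARγ and of other genes of lipid metabolism, and miR-24 as a regulator of the cell cycle and of apoptosis. These roles are background, and the arrays measured whole dissected nuclei. In such tissue, a loss of cells of one type and a lower level per cell cannot be told apart.

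The mature sequences show that the 5 miRNAs carry 3 seeds, which are in capitals. They are printed from RefSeq (GRCr8 annotation), 5′ to 3′.
rno-miR-23a-3p: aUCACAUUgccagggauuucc
rno-miR-23b-3p: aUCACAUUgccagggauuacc
rno-miR-27a-3p: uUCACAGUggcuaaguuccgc
rno-miR-27b-3p: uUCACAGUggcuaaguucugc
rno-miR-24-3p: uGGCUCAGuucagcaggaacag
miR-23a-3p and miR-23b-3p differ by U19A and miR-27a-3p and miR-27b-3p by C19U, counted from the 5′ end with the a form first. Each pair was therefore identical at 20 of 21 bases, and its members share the seed. Of the 758 miRNAs on the array, 685 were matched to a RefSeq mature sequence, and among these no other miRNA carried the seed of miR-23, of miR-27 or of miR-24. The array measured each of the 5 with 2 probes of 8 spots each. Whether the RNA of 1 paralog also bound the probes of the other was not tested.

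The precursors lie on the minus strand of 2 chromosomes. Mir23b, Mir27b and Mir24-1 span chr17:1818669-1819482 (GRCr8), 814 bases inside the protein-coding gene Aopep, an aminopeptidase. The protein-coding gene Fancc and the miRNA gene Mir3074 overlap this span at its Mir24-1 end. Mir23a, Mir27a and Mir24-2 span chr19:40859455-40859843, 389 bases outside any annotated protein-coding gene, with Zswim4 the protein-coding gene within 10 kb. Both miR-24 precursors give the same miR-24-3p, printed here in capitals within the hairpins, so its signal is a sum over both clusters and cannot be assigned to either.
Mir24-1: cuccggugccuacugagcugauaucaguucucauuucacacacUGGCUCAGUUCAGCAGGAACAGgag
Mir24-2: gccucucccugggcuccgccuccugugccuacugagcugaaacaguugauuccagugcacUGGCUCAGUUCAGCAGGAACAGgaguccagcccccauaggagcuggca

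All 8 arrays shared 1 slide and 1 scan. The UVD arrays lay in row 2 and the SO arrays in row 1 of the slide, with 4 d in columns 1 and 2 and 4 h in columns 3 and 4, so that slide position and group cannot be told apart. Between 378 and 430 of the 758 miRNAs were detected per array, and 0 spots were saturated. The intensity is the total gene signal, the sum of the background-subtracted spot signals of a miRNA, and normalized intensity is this signal after quantile normalization, which gives the same set of values to every array in the order of its signals. A miRNA entered the test when both arrays of some group detected it, which held for 422, and these were compared on the log2 scale with limma in 1 model of the 4 groups, with Benjamini-Hochberg adjustment over the 422 and a threshold of 0.05. Of the 5 miRNAs, all passed the detection filter, and each passed it in every group. Because every array has the same set of values, 2 arrays on which a miRNA has the same rank get the same value and an SD of 0.

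**Figure D1:**
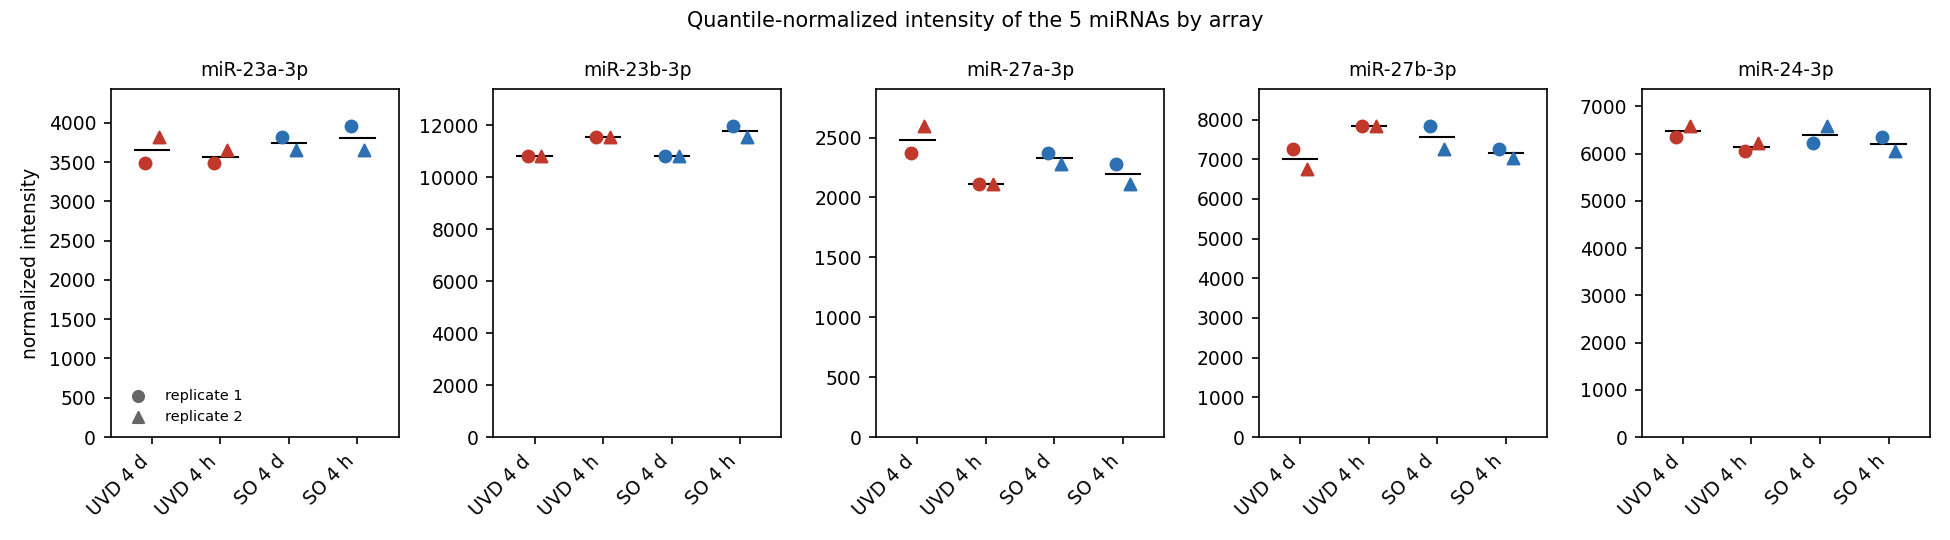
Normalized intensity (y axis, linear from 0) of the 5 miRNAs on each of the 8 arrays, with the UVD group in red, the SO group in blue, circles for replicate 1, triangles for replicate 2 and a line at the mean of each group. The arrays of each miRNA lie close together, and miR-27a-3p has the widest relative spread, between 2111 and 2594.

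miR-23a-3p, a miRNA of the chromosome 19 cluster, had a normalized intensity of 3484 and 3820 on the UVD arrays at 4 d and of 3484 and 3658 on the UVD arrays at 4 h. The SO arrays had 3820 and 3658 at 4 d and 3957 and 3658 at 4 h. The arrays of the groups overlapped in each of the 4 comparisons. Its group means were 3652 ± 238 in UVD at 4 d, 3571 ± 123 in UVD at 4 h, 3739 ± 114 in SO at 4 d and 3808 ± 211 in SO at 4 h (SD, n = 2 arrays), an order of SO at 4 h, SO at 4 d, UVD at 4 d and UVD at 4 h in which no neighbors differed beyond their spread.

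miR-23b-3p, its paralog in the chromosome 17 cluster, had a normalized intensity of 10835 on both UVD arrays at 4 d and of 11569 on both UVD arrays at 4 h. It had 10835 on both SO arrays at 4 d and 11967 and 11569 on the SO arrays at 4 h. It thus held the same rank, 18 of 758, on all 4 arrays at 4 d and ranks 16 and 17 at 4 h, which put the 4 d arrays below the 4 h arrays in both groups. Group means were 10835 ± 0 in UVD at 4 d, 11569 ± 0 in UVD at 4 h, 10835 ± 0 in SO at 4 d and 11768 ± 282 in SO at 4 h (SD, n = 2 arrays). The groups of one timepoint were neighbors in the order of means and overlapped, and the timepoints did not overlap in either group.

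The miR-27 pair had a wider spread. On the UVD arrays miR-27a-3p had a normalized intensity of 2370 and 2594 at 4 d and of 2111 on both arrays at 4 h. On the SO arrays it had 2370 and 2282 at 4 d and 2282 and 2111 at 4 h. The 4 d arrays of the UVD group lay above its 4 h arrays, whereas the SO timepoints overlapped, as did the UVD and SO groups at either timepoint. Its means were 2482 ± 158 in UVD at 4 d, 2111 ± 0 in UVD at 4 h, 2326 ± 62.1 in SO at 4 d and 2196 ± 121 in SO at 4 h (SD, n = 2 arrays). The UVD group thus held both the highest and the lowest mean with the SO group between, and neighbors in the order of means overlapped.

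miR-27b-3p ran in the other order within the UVD group, with a normalized intensity of 7267 and 6745 at 4 d and of 7829 on both arrays at 4 h. The SO arrays had 7829 and 7267 at 4 d and 7267 and 7029 at 4 h. At 4 h, both UVD arrays were above both SO arrays, and within the UVD group both 4 d arrays were below both 4 h arrays. Its means were 7006 ± 369 in UVD at 4 d, 7829 ± 0 in UVD at 4 h, 7548 ± 398 in SO at 4 d and 7148 ± 168 in SO at 4 h (SD, n = 2 arrays), and again the UVD group held both ends of the order, with overlapping neighbors.

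miR-24-3p, the product of both clusters, had a normalized intensity of 6360 and 6578 on the UVD arrays at 4 d and of 6045 and 6228 on those at 4 h. The SO arrays had 6228 and 6578 at 4 d and 6360 and 6045 at 4 h. The 4 d arrays were above the 4 h arrays in the UVD group and overlapped with them in the SO group. Means were 6469 ± 154 in UVD at 4 d, 6137 ± 130 in UVD at 4 h, 6403 ± 248 in SO at 4 d and 6203 ± 223 in SO at 4 h (SD, n = 2 arrays), and neighbors in their order overlapped.

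The first comparison asked whether the loss of vestibular input changed these miRNAs relative to the sham operation. At 4 d after surgery, 0 of the 5 passed limma's test and their arrays overlapped between the UVD and SO groups in all 5. Of the 422 miRNAs tested, 0% were called at 4 d, and the arrays of the groups did not overlap in 29.4%. The log2 fold change of UVD over SO was -0.035 for miR-23a-3p, 0 for miR-23b-3p, 0.092 for miR-27a-3p, -0.11 for miR-27b-3p and 0.015 for miR-24-3p, with adjusted p = 0.759 as the lowest. Without scaling between arrays miR-23a-3p was at 0.22 and miR-27b-3p at 0.083 in place of their values under 0, where the median of all miRNAs was 0.16. An unadjusted p under 0.05 was reached by 0 of the 5 and 16 of the 422 (3.79%) in limma. With the methods' t-test, it was reached by 0 of the 4 for which that test is defined and by 16 of all.

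At 4 h the result was the same in count, with 0 of 5 called where 0.474% of the 422 were called, a count of 2 that was 1 to 10 with 1 array left out. Only miR-27b-3p, which had a normalized intensity of 7829 ± 0 in UVD against 7148 ± 168 in SO, had arrays that did not overlap, beside 50.9% of the 422 in either direction. Its log2 fold change was 0.13 (SE 0.07, 95% confidence interval -0.04 to 0.30, adjusted p = 0.384), and it was -0.054 without scaling between arrays, where the median of all miRNAs was -0.11. The 2 probes of miR-27b-3p, fitted singly, were at 0.081 and -0.012. The other 4 miRNAs had log2 fold changes between -0.092 for miR-23a-3p and -0.015 for miR-24-3p, and in all 4 scaling to a 75th percentile turned the sign. Of the 5, 0 had an unadjusted p under 0.05 in limma, where 72 of the 422 (17.1%) did, and 1 in the methods' t-test (miR-27b-3p), where 56 did.

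Over both timepoints, the 10 log2 fold changes of UVD over SO had 95% confidence intervals that all lay within -0.29 and 0.30, that is between 0.820-fold and 1.23-fold. These intervals hold for the quantile-normalized values and leave room there for differences up to those sizes. Other scalings moved the values. With the 75th percentile of all miRNAs, miR-23b-3p at 4 h was at 0.25, where the median of all miRNAs was 0.15. Intervals under other scalings are not given here. The standard errors of the 5 were 0.05 to 0.08, with a median of 0.11 over all 422. The median size of the log2 fold change of all tested miRNAs was 0.11 at 4 d and 0.14 at 4 h.

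**Figure D2:**
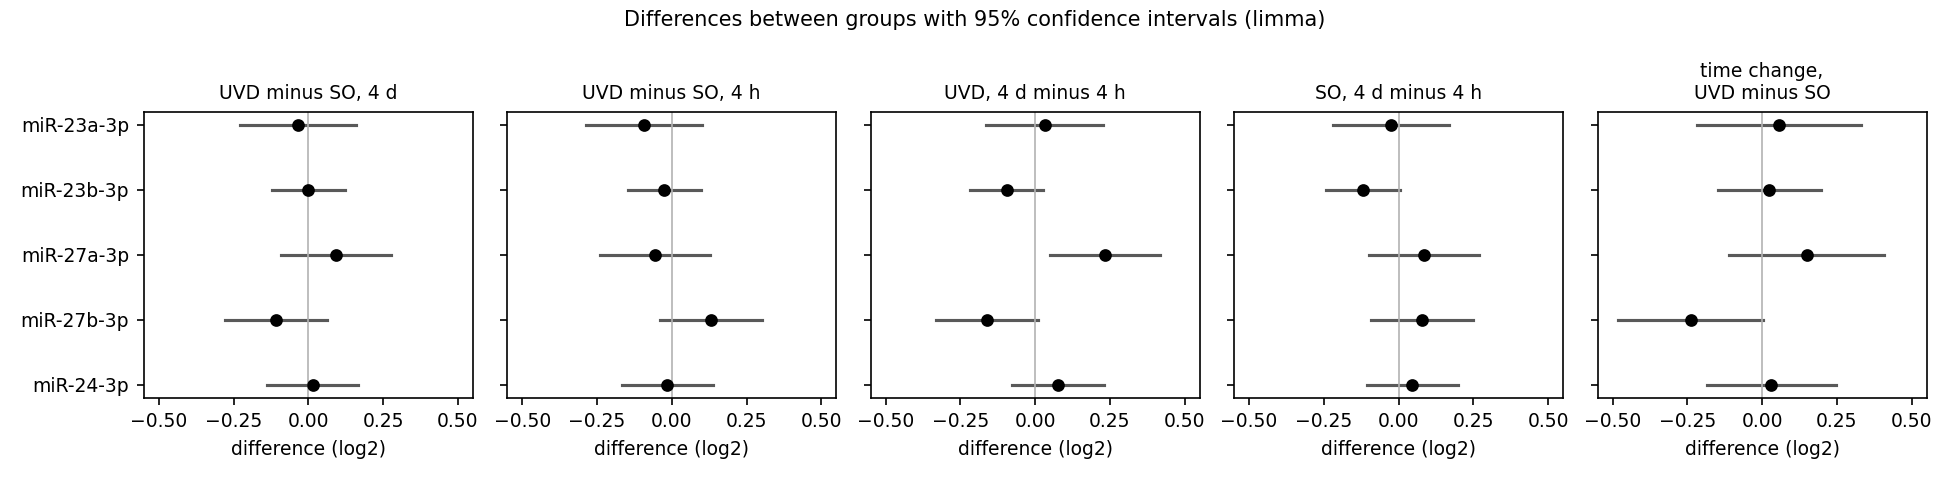
Log2 differences of the 5 miRNAs (points) with 95% confidence intervals from limma (bars) for UVD minus SO at 4 d and at 4 h, for 4 d minus 4 h within the UVD and SO groups, and for the difference of the time changes. The interval of miR-27a-3p between the timepoints of the UVD group, 0.05 to 0.42, is the only one of the 25 that does not include 0.

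The second comparison was between the timepoints of one group, 4 d over 4 h. In the UVD group, miR-27a-3p was at 1.17-fold of its 4 h level and miR-27b-3p at 0.894-fold on the normalized scale, and neither passed the test. The log2 difference was 0.23 for miR-27a-3p (SE 0.07, 95% confidence interval 0.05 to 0.42, unadjusted p = 0.0223, adjusted p = 0.282 in limma). Scaling to the 75th percentile of the miRNAs detected on all 8 arrays gave 0.069, where the median of all miRNAs was -0.081. The log2 difference was -0.16 for miR-27b-3p (SE 0.07, interval -0.33 to 0.01, adjusted p = 0.316 in limma), with the opposite sign, 0.21, without scaling between arrays. By unadjusted p, miR-27a-3p was in place 30 of the 422, and the size of its difference was at percentile 68.5 of all tested miRNAs.

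Of the 5, 0 were called between the timepoints of the UVD group, where 0% of the 422 were called, and 4 had arrays that did not overlap, beside 44.3% of the 422. Those 4 were miR-27a-3p and miR-24-3p, higher at 4 d, and miR-23b-3p and miR-27b-3p, lower at 4 d but higher without scaling. The log2 difference was 0.076 for miR-24-3p, -0.095 for miR-23b-3p and 0.031 for miR-23a-3p. Unadjusted p was under 0.05 for 1 of the 5, miR-27a-3p, and for 65 of the 422 (15.4%) in limma, and the methods' t-test reached it for 0 of the 4 members for which it is defined and for 46 of all. Without scaling between arrays, the difference between the UVD timepoints had a median of 0.26 over all miRNAs. On that scale miR-27b-3p and, at 0.25, miR-23b-3p were below that median, and miR-27a-3p was above it at 0.42.

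Within the SO group, miR-23b-3p was lower at 4 d than at 4 h, with a log2 difference of -0.12 (SE 0.05, interval -0.24 to 0.0032, adjusted p = 0.220), but it was higher at 0.11 to 0.30 with each linear scaling and without scaling. Its arrays did not overlap, as in 54.3% of the 422, while its 2 probes, fitted singly, were at 0.0062 and 0.014. For the other 4, the difference was between -0.025 for miR-23a-3p, whose sign turned with the same scalings, and 0.084 for miR-27a-3p, and their arrays overlapped. Here too 0 of the 5 were called, where 1.66% of the 422 were, and 0 of the 5 against 100 of the 422 (23.7%) had an unadjusted p under 0.05 in limma. The methods' t-test reached that level for 1 of the 5, miR-23b-3p, and for 47 of all.

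Whether the time change differed between the UVD and SO groups was tested as an interaction. It was not called for any of the 5, and 0.237% of the 422 were called. miR-27b-3p had the largest value of the 5, -0.24 (SE 0.10, interval -0.48 to 0.00, unadjusted p = 0.0518, adjusted p = 0.492), since the UVD group was lower and the SO group higher at 4 d. Without scaling it was 0.14, where the median of all miRNAs was 0.31. miR-27a-3p was at 0.15 (adjusted p = 0.608), and the other 3 were between 0.024 and 0.057. These 4 values turned negative with scaling to a 75th percentile. The median of all tested miRNAs was then -0.11 (percentile of the miRNAs detected on 8 arrays) or -0.13 (percentile of all miRNAs). An unadjusted p under 0.05 was reached by 0 of the 5 and 37 of the 422 (8.77%).

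The paralogs differ by 1 base and come from different chromosomes. A linear scaling factor of an array cancels in the log2 difference of any 2 miRNAs on it, so the unscaled paralog difference is free of that factor. The log2 difference of miR-27a-3p minus miR-27b-3p, unscaled, was -1.69 and -1.43 on the UVD arrays at 4 d and -1.74 and -1.80 on those at 4 h. It was -1.68 and -1.73 on the SO arrays at 4 d and -1.64 and -1.72 on those at 4 h. Only replicate 2 of the UVD group at 4 d lay apart from the other 7 arrays, which were between -1.80 and -1.64. This difference compares the same pair between arrays. It is no measure of which paralog is more abundant, because probes differ in how well they bind.

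For miR-23a-3p minus miR-23b-3p, the unscaled difference was -1.62 and -1.51 on the UVD arrays at 4 d, -1.68 and -1.66 on those at 4 h, -1.63 and -1.68 on the SO arrays at 4 d and -1.56 and -1.62 on those at 4 h. The same array, UVD at 4 d replicate 2, had the smallest difference. After quantile normalization the miR-27 difference was -1.62 and -1.38 in UVD at 4 d and -1.89 on both arrays in UVD at 4 h, against -1.72 and -1.67 in SO at 4 d and -1.67 and -1.74 in SO at 4 h. The 2 UVD arrays at 4 h stood apart on the normalized scale by more than on the unscaled one. With 2 arrays against 2, no test was made of these differences.

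**Figure D3:**
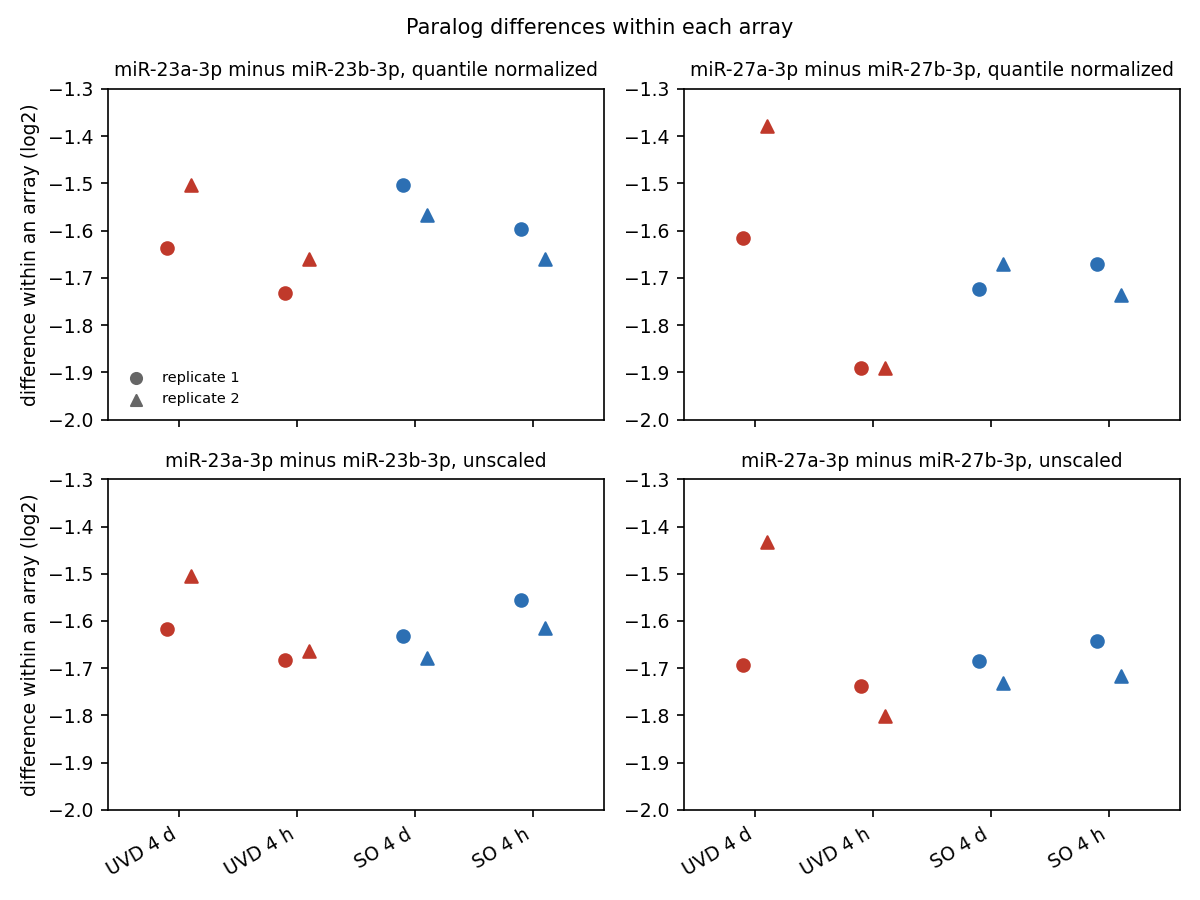
Log2 difference within each array (y axis) of miR-23a-3p minus miR-23b-3p and of miR-27a-3p minus miR-27b-3p, from quantile-normalized (top) and unscaled (bottom) signals, with the UVD group in red and the SO group in blue. Replicate 2 of UVD at 4 d is the highest array in 3 of the panels and ties with replicate 1 of SO at 4 d in the normalized miR-23 panel.

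The total gene signal before any scaling shows what normalization removed. All 5 miRNAs had their highest unscaled signal on replicate 1 of UVD at 4 d. On that array it was 4640 for miR-23a-3p, 14225 for miR-23b-3p, 2775 for miR-27a-3p, 8977 for miR-27b-3p and 7841 for miR-24-3p. Replicate 2 of the same group had 3803, 10796, 2535, 6845 and 6766 in the same order of miRNAs. The lowest signal was on replicate 1 of UVD at 4 h for 4 of the 5, and on replicate 1 of SO at 4 h for miR-23b-3p. The ratio of the highest to the lowest array was 1.40 to 1.50 unscaled and 1.09 to 1.23 after normalization.

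**Figure D4:**
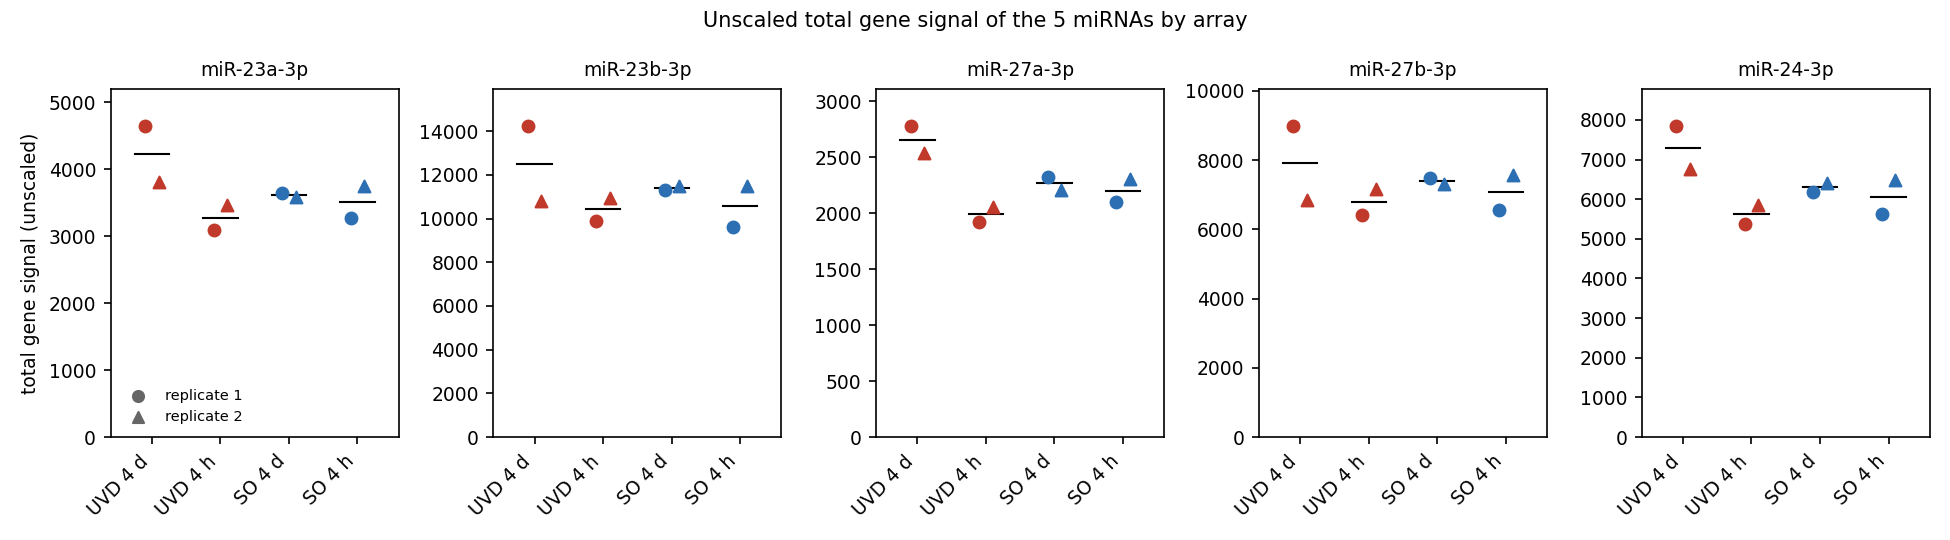
Total gene signal (y axis, linear from 0) of the 5 miRNAs on each array as read from the scan, before any scaling between arrays. Symbols are those of the plot of normalized intensity, and replicate 1 of UVD at 4 d is the highest array in all 5 panels.

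The spread over the 8 arrays lay in the lower part of that of the other miRNAs. Between the highest and the lowest array, normalized intensity differed by 0.12 on the log2 scale for miR-24-3p, 0.14 for miR-23b-3p, 0.18 for miR-23a-3p, 0.22 for miR-27b-3p and 0.30 for miR-27a-3p. The median range was 0.42 over the 377 miRNAs detected on all 8 arrays. Among those 377, the ranges were at percentiles 2.39, 4.77, 8.75, 13.5 and 30.5 in the same order. The members were bright, with ranks between 16 and 54 of 758 by signal. They were not set against miRNAs of like signal, and the part of brightness in their ranges was not tested. These percentiles describe the 8 arrays and were not tested.

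**Figure D5:**
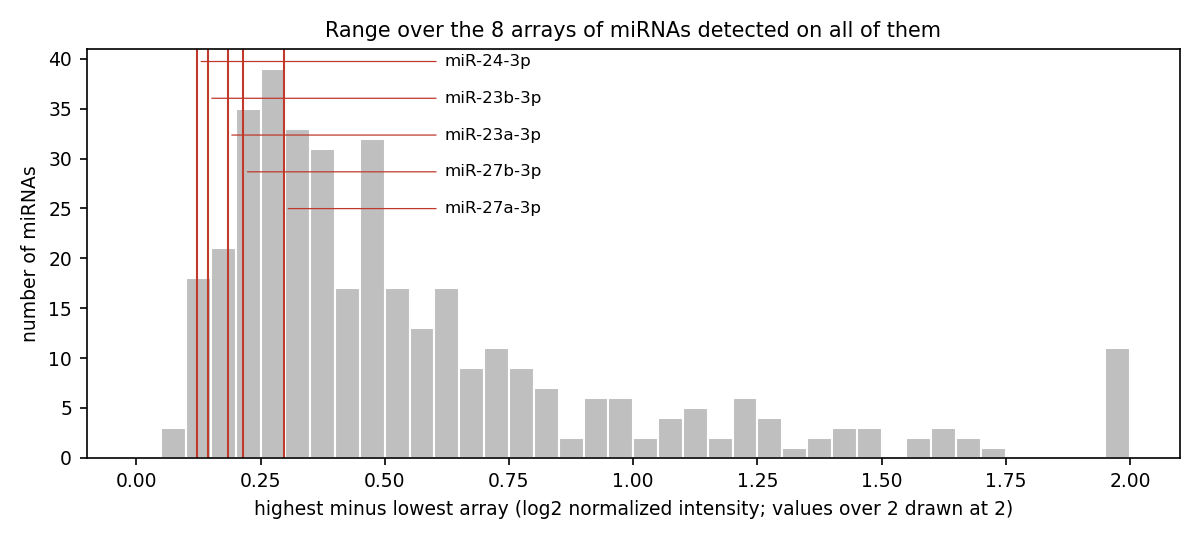
Histogram of the range over the 8 arrays (x axis, highest minus lowest log2 normalized intensity, values over 2 drawn at 2) of the 377 miRNAs detected on all of them. Red lines mark the 5 miRNAs, which run between 0.12 for miR-24-3p and 0.30 for miR-27a-3p and lie below the median of 0.42.

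Each probe was also followed on its own. Of the 10 probes of the 5 miRNAs, 0 were called in any comparison, and the lowest adjusted p was 0.222 in limma over the 1010 probes tested. How many of the 1010 were called was not counted. Between the timepoints of the UVD group, all 10 had the sign of their miRNA. The total gene signal sums the same spots, so the probes are not independent of it. Both miR-27a-3p probes were higher at 4 d, by 0.12 and 0.16 on the log2 scale, and both miR-27b-3p probes were lower, at -0.13 and -0.16. For UVD against SO the probes were less alike, with the sign of their miRNA in 4 of 10 at 4 d (where miR-23b-3p had no sign) and in 7 of 10 at 4 h. Between the SO timepoints 6 of 10 had that sign, and for the difference of the time changes 7 of 10. Both miR-23b-3p probes had the opposite sign to their miRNA between the SO timepoints and for the difference of the time changes.

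The other arm of each precursor is mostly degraded when the miRNA matures, and here its level was low. miR-24-2-5p, the arm that comes from Mir24-2 alone, was the only one of 6 detected on all 8 arrays. Its normalized intensity was 44.9 and 40.7 in UVD at 4 d, 40.7 and 42.3 in UVD at 4 h, 39.9 and 45.3 in SO at 4 d and 44.9 and 40.7 in SO at 4 h. The groups overlapped in each comparison, and the log2 fold change of UVD over SO was 0.0086 at 4 d (adjusted p = 1) and -0.044 at 4 h (adjusted p = 0.847). miR-24-1-5p, the arm from Mir24-1, was detected on 0 arrays, as were miR-23b-5p, miR-27a-5p and miR-27b-5p. miR-23a-5p was detected on replicate 2 of UVD at 4 d and replicate 1 of UVD at 4 h, with unscaled signals of 2.20 and 1.90, and was not tested. The 2 miR-24 arms that separate the precursors share their seed, shown in capitals, and differ at 5 positions.
rno-miR-24-1-5p: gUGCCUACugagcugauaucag
rno-miR-24-2-5p: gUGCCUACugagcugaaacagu

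The name glial for these clusters could not be checked from levels in whole tissue, but miRNAs of the cell types that the dissected nucleus can hold were measured on the same arrays. Of 8 miRNAs of astrocytes and reactive glia, among them miR-29b-3p, miR-29a-3p and miR-26a-5p, all were tested and 0 were called in any comparison. Their median log2 fold change of UVD over SO was -0.064 at 4 d and 0.00 at 4 h, beside -0.024 and -0.014 over all 422. At 4 d the 8 ran between -0.12 for miR-29c-3p and 0.23 for miR-21-5p. How specific the 8 are to these cells was not tested. Their summed normalized intensity was 100427 to 101255 in UVD at 4 d, 104099 to 104269 in UVD at 4 h, 96819 to 105851 in SO at 4 d and 105529 to 106996 in SO at 4 h. Of 4 miRNAs of oligodendrocytes, among them miR-219a-5p and miR-338-3p, 0 were called, and the median was -0.13 at 4 d and 0.016 at 4 h.

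Other marker lists were read beside the difference of miR-27a-3p between the timepoints of the UVD group, and none had a member that passed the test there. Choroid plexus and ciliated ependyma, tissues of the ventricle next to the MVN, were represented by 6 miRNAs that summed to a normalized intensity of 7373 to 9156 in UVD at 4 d and 5907 to 6040 in UVD at 4 h, with a mean above that at 4 h in all 6 (median log2 difference 0.59, 0 called). The 6 miRNAs of microglia and leukocytes summed to 4084 to 4310 in UVD at 4 d and 3691 to 3748 in UVD at 4 h. The 4 d mean was above in 5 of them (median 0.45, 0 called). Their members with the highest mean signal, miR-150-5p, miR-146b-5p and miR-142-3p, had log2 differences of 0.055, -0.019 and 0.75. The 3 tested vessel miRNAs had a lower mean at 4 d in all 3 (median -0.14, 0 called), and 1 further vessel miRNA of the list was detected on 0 arrays. The 3 erythroid miRNAs, carried by blood in the tissue, were higher in all 3 (median 0.32, 0 called). A lower mean at 4 d was found in all 4 oligodendrocyte miRNAs (median -0.091) and in 5 of 8 of neurons (median -0.072). The same held for 3 of 4 of muscle (median -0.080) and 2 of 2 for hindbrain position (median -0.32). Those of astrocytes and reactive glia were higher in 5 of 8 (median 0.021). The part of these lists in the values of miR-27a-3p was not tested.

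Within the SO group the lists for neurons and for hindbrain position each had 2 miRNAs that fell between the timepoints, and that for choroid plexus and ependyma had 1 that rose, beside 1.66% of the 422 called in either direction. The 2 Hox-cluster miRNAs, which mark position along the hindbrain and spinal cord, summed to 258 to 359 in SO at 4 d and 709 to 748 in SO at 4 h. They had a lower mean in UVD than in SO at 4 h in both (median log2 fold change -1.09, 0 called). The 4 muscle miRNAs had a higher mean at 4 d in the SO group in all 4 (median log2 difference 0.63, 0 called) and a higher mean in UVD than in SO at 4 h in all 4 (median 0.52, 0 called). The part of these lists in the values of the 5 miRNAs was not tested.

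Patterns across the 8 arrays most like those of the 5 were described by Pearson correlation of log2 normalized intensity over the 422 tested miRNAs. miR-23a-3p was closest to miR-143-5p (r = 0.841), miR-135b-5p (r = 0.781) and miR-199a-3p (r = 0.730). The nearest to miR-23b-3p were miR-138-5p (r = 0.957), miR-874-3p (r = 0.949) and miR-149-5p (r = 0.945). For miR-27a-3p they were let-7b-5p (r = 0.9996), miR-130b-3p (r = 0.897) and let-7i-5p (r = 0.895). Of these, let-7b-5p had a range of only 0.13 on the log2 scale, and miR-130b-3p, not detected on all 8 arrays, had a range of 4.8. For miR-27b-3p they were miR-329-3p (r = 0.941), miR-216a-5p (r = 0.904) and miR-126a-5p (r = 0.825). For miR-24-3p they were miR-378a-5p (r = 0.854), miR-486 (r = 0.841) and miR-142-3p (r = 0.840). None of the 15 was another of the 5. The 8 points share the slide, the array and the tied ranks of quantile normalization, so these values describe likeness on these arrays and carry no test.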

How the data were processed

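Total RNA of left MVNs was labeled with Cy3 and hybridized to a rat miRNA array. The authors read the scans with Agilent Feature Extraction 10.7.3.1 and deposited the intensity of each spot and the total gene signal of each miRNA on a linear scale, together with their own normalized intensity values, quantile normalized in GeneSpring GX 13.1. Here the total gene signals of the 758 miRNAs were quantile normalized over the 8 arrays, as in the study's methods. Values under 1 were set to 1, and log2 was taken. The 422 miRNAs that both arrays of some group detected were fitted with limma 3.58.1 in R 4.3.3 (lmFit, contrasts.fit and eBayes on group means). The methods' t-test used these same values, and is undefined where neither group had spread (8 to 13 of the 422 per comparison). The model was run on simulated data with planted changes. Those data were not quantile normalized, so the run does not show how small a change of the members could be found.

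Groups were taken from the sample titles, with 2 arrays each, which limits the precision. Sequences and coordinates came from RefSeq (GRCr8). The members, the other arms, the 3 most alike miRNAs and the marker lists were named by rule, and members and lists were chosen with earlier results of these data known. Alternatives were other scalings and signals, other detection filters, floors and variance models, single probes, a block for the replicate number and the omission of each array. qRT-PCR, rotarod and behavioral data were not analysed here.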

Additional observations from a re-analysis of the deposited data

How the results depend on the processing

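None of the 5 miRNAs passed the threshold in any comparison under any alternative run, which included leaving out each array and single probes. Of 515 recomputed values, 437 kept their direction, 51 turned it, 6 became 0, and 21 belonged to miR-23b-3p at 4 d, whose main value of 0 has no direction. The linear scalings also moved the median of all miRNAs. For UVD over SO at 4 h it was 0.12 with the 75th percentile of the miRNAs detected on 8 arrays, 0.15 with that of all miRNAs and -0.11 without scaling. The cause of the other turns was not tested. Replicate numbers were those of the sample titles, since another label gives both arrays of a group the same number. They did not pair the arrays (correlations of same-numbered deviations between -0.25 and 0.19). With the replicate block, 0 of the 5 were called, and miR-27a-3p between the UVD timepoints had a log2 difference of 0.23 with adjusted p = 0.376.

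All values that turned are log2 fold changes. With the 75th percentile of the miRNAs detected on 8 arrays, UVD over SO at 4 h was 0.14 for miR-23a-3p, 0.22 for miR-23b-3p, 0.093 for miR-27a-3p and 0.13 for miR-24-3p, and at 4 d 0.029 for miR-23a-3p. The SO time change, 4 d over 4 h, was 0.12 for miR-23a-3p and 0.19 for miR-23b-3p, and the difference of the time changes was -0.11 for miR-23a-3p, -0.29 for miR-23b-3p, -0.053 for miR-27a-3p and -0.11 for miR-24-3p. With the 75th percentile of all miRNAs, the same values were 0.16, 0.25, 0.12 and 0.16 at 4 h, 0.039 at 4 d, 0.23 and 0.30 in SO, and -0.12, -0.31, -0.069 and -0.13. Without scaling, miR-27b-3p was at -0.054 at 4 h, 0.083 at 4 d, 0.21 in the UVD time change and 0.14 in the difference of the time changes, miR-23a-3p was at 0.22 at 4 d and 0.046 in the SO time change, and miR-23b-3p was at 0.25 in the UVD and 0.11 in the SO time change. The authors' normalized values gave 0.030 for miR-23b-3p and 0.010 for miR-24-3p at 4 h, -0.011 for miR-24-3p at 4 d, -0.021 for miR-27a-3p in the SO time change, and -0.030 for miR-23b-3p and -0.021 for miR-24-3p in the difference. Normexp on the median spot signal gave 0.032 for miR-23b-3p at 4 h, 0.12 for miR-23a-3p in the SO time change and -0.070 for miR-23b-3p in the difference.

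With 1 array left out, miR-24-3p ranged between -0.052 and 0.022 at 4 h, between -0.024 and 0.055 at 4 d and between -0.0092 and 0.070 in the difference. miR-23a-3p ranged between -0.10 and 0.031 at 4 d, between -0.035 and 0.098 in the UVD time change, between -0.082 and 0.031 in the SO time change and between -0.0098 and 0.12 in the difference. Without replicate 1 of SO at 4 h, miR-23b-3p and miR-27a-3p were at 0 at 4 h. miR-27a-3p ranged between 0.027 and 0.16 at 4 d, between 0.17 and 0.30 in the UVD time change and between 0.084 and 0.21 in the difference, and miR-27b-3p between -0.16 and -0.054 at 4 d and between -0.22 and -0.11 in the UVD time change. The lone array of a group was then assumed to vary like the other groups. All 5 miRNAs were detected on all 8 arrays, and precision was limited by the number of arrays.

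The counts called among all miRNAs moved more. They were 2 at 4 h, 0 at 4 d, 0 in the UVD time change, 7 in the SO time change and 1 in the difference. Without replicate 1 of UVD at 4 h they were 10, 0, 11, 3 and 7, and without its replicate 2 they were 1, 0, 1, 3 and 0. Without replicate 1 of UVD at 4 d they were 1, 1, 2, 1 and 2, and without its replicate 2 they were 1, 2, 3, 1 and 2. Without replicate 1 of SO at 4 d they were 6, 0, 0, 12 and 3, and without its replicate 2 they were 6, 0, 0, 3 and 0. Without replicate 1 of SO at 4 h they were 3, 0, 0, 4 and 3, and without its replicate 2 they were 4, 0, 0, 3 and 2. Over the other alternatives they were 0 to 9, 0 to 2, 0 to 2, 0 to 19 and 0 to 3.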
